A study of Mus musculus with 16 samples.

Results

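The matrix metalloproteinases, the ADAMTS proteases, their inhibitors and the enzymes that modify and cross-link collagen were examined in mouse C2C12 muscle cells. The members were all rows of the deposited table with a gene symbol of the Mmp, Timp, Adamts, Adamtsl, P4ha, Plod or Lox and Loxl series, whatever their values, which gave 61 of the 31053 listed genes. Of these, 34 reached a normalized count of 10 in at least 4 of the 16 samples and were tested, 15 had reads but stayed below that filter, and 12 had no read in any sample.

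C2C12 is a mouse myoblast line whose cells fuse into multinucleated myotubes. The study compared wild-type (WT) cells with cells in which Fam134b, a receptor that delivers endoplasmic reticulum to autophagy, had been targeted (Fam134bKO), each as undifferentiated myoblasts and as differentiated myotubes, with 4 samples in each of the 4 groups, labelled as biological replicates. WT cells are the controls, and no control vector is described for them. Fam134bKO cells carried a lentiviral CRISPR-Cas9 vector with a pair of guides and were selected with antibiotics, and isolation of single clones is not described. In the genotype comparisons, loss of Fam134b therefore cannot be told apart from the vector, the selection or other differences between the cell populations. All cells grew in DMEM with 10% serum on plates coated with a commercial matrix preparation, and myotubes formed spontaneously after the cells became confluent, without a switch to low serum. The labels give no day, so differentiation, time in culture and cell density cannot be told apart.

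Metalloproteinases are made as inactive precursors, cut matrix proteins once activated, and are held in check by the TIMPs. ADAMTS2, ADAMTS3 and ADAMTS14 remove the amino-terminal propeptide of fibrillar procollagens, ADAMTS1, ADAMTS4 and ADAMTS5 cut the proteoglycans aggrecan and versican, and the ADAMTS-like proteins lack a protease domain and bind the matrix. Prolyl 4-hydroxylase and the lysyl hydroxylases act on collagen chains inside the endoplasmic reticulum, whereas the lysyl oxidases act on the secreted fibre and start its cross-links.

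The samples held between 1484750 and 3287461 reads on genes, and the 2 shallowest were Fam134bKO myotubes 2 and 4. Fam134b itself was at 207 ± 42.0 (SD, n = 4) in WT myoblasts and 232 ± 61.6 in WT myotubes, against 27.5 ± 5.49 and 41.8 ± 14.0 in the Fam134bKO groups. A set of 6 myotube genes summed to between 749.5 and 1216 normalized counts in WT myoblasts, between 17360 and 25120 in WT myotubes, 9.18 to 17.4 in Fam134bKO myoblasts and 7961 to 11270 in Fam134bKO myotubes, so the genotypes also differed in their muscle programme at both stages. Endothelial markers summed to at most 1.94. The 5 macrophage markers summed to 9.007 to 9.80, 7.43 to 17.3, 8.68 to 20.02 and 4.00 to 26.1 in the same order of groups, with no read from Ptprc and Adgre1. Of 6 fibroblast markers, Col15a1 had no read and Thy1, Lum and Dpt reached at most 2.70, and the sum lay between 4.003 and 9.23 in WT myoblasts, between 22.5 and 91.5 in WT myotubes, between 5.84 and 13.01 in Fam134bKO myoblasts and between 112 and 210.1 in Fam134bKO myotubes. Most of it in myotubes was Dcn. The 6 adipocyte markers summed to 75.7 to 97.1, 109 to 201, 129.5 to 176 and 214.5 to 451 in that order, highest in Fam134bKO myotubes, where most of the sum was Lpl, while Adipoq and Plin1 had no read. The 5 osteoblast markers summed to 111 to 150.1, 38.9 to 83.6, 68.9 to 118 and 26.3 to 76.5, nearly all from Runx2, with no read from Alpl and Ibsp. A set of 4 proliferation genes summed to 3049 to 3746, 1668 to 2732, 2362 to 4161 and 711 to 1201 in the same order of groups. The part of these shifts in the results was not tested. In RNA from whole cultures, fewer cells of a type and less RNA per cell cannot be told apart.

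On differentiation in WT cells all members that passed the test were higher in myotubes. Of 34, 20 were called higher in myotubes and 0 lower, and the median log2 difference was 1.00 against -0.01 over all 10767 genes tested. Among all genes, 13.8% were called higher and 9.16% lower. A call is an adjusted p under 0.05 from limma, and all differences here are log2 differences of normalized counts plus 1. At an unadjusted p under 0.05, 24 of the 34 members passed, against 3816 of all 10767 genes. Without WT myotubes 1, 13 members were called higher.

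In Fam134bKO cells 19 members were called higher in myotubes and 2 lower, with a median of 1.00 against -0.02 over all genes, where 17.3% were called higher and 16.1% lower. Without both shallow samples, 18 were called higher and 0 lower. The count called lower was 0 without any one of Fam134bKO myoblasts 1 and 3 and Fam134bKO myotubes 2, and 1 without any one of Fam134bKO myoblasts 4 and Fam134bKO myotubes 3 and 4. The 15 members called higher in each genotype were Mmp2, Mmp15 and Mmp19, Adamts2, Adamts4, Adamts12 and Adamts14, Adamtsl2 and Adamtsl4, P4ha1 and P4ha2, Plod1 and Plod2, and Loxl1 and Loxl3. Those lists come from separate comparisons, and a difference between the genotypes was tested only by the interaction given further on.

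**Figure D1:**
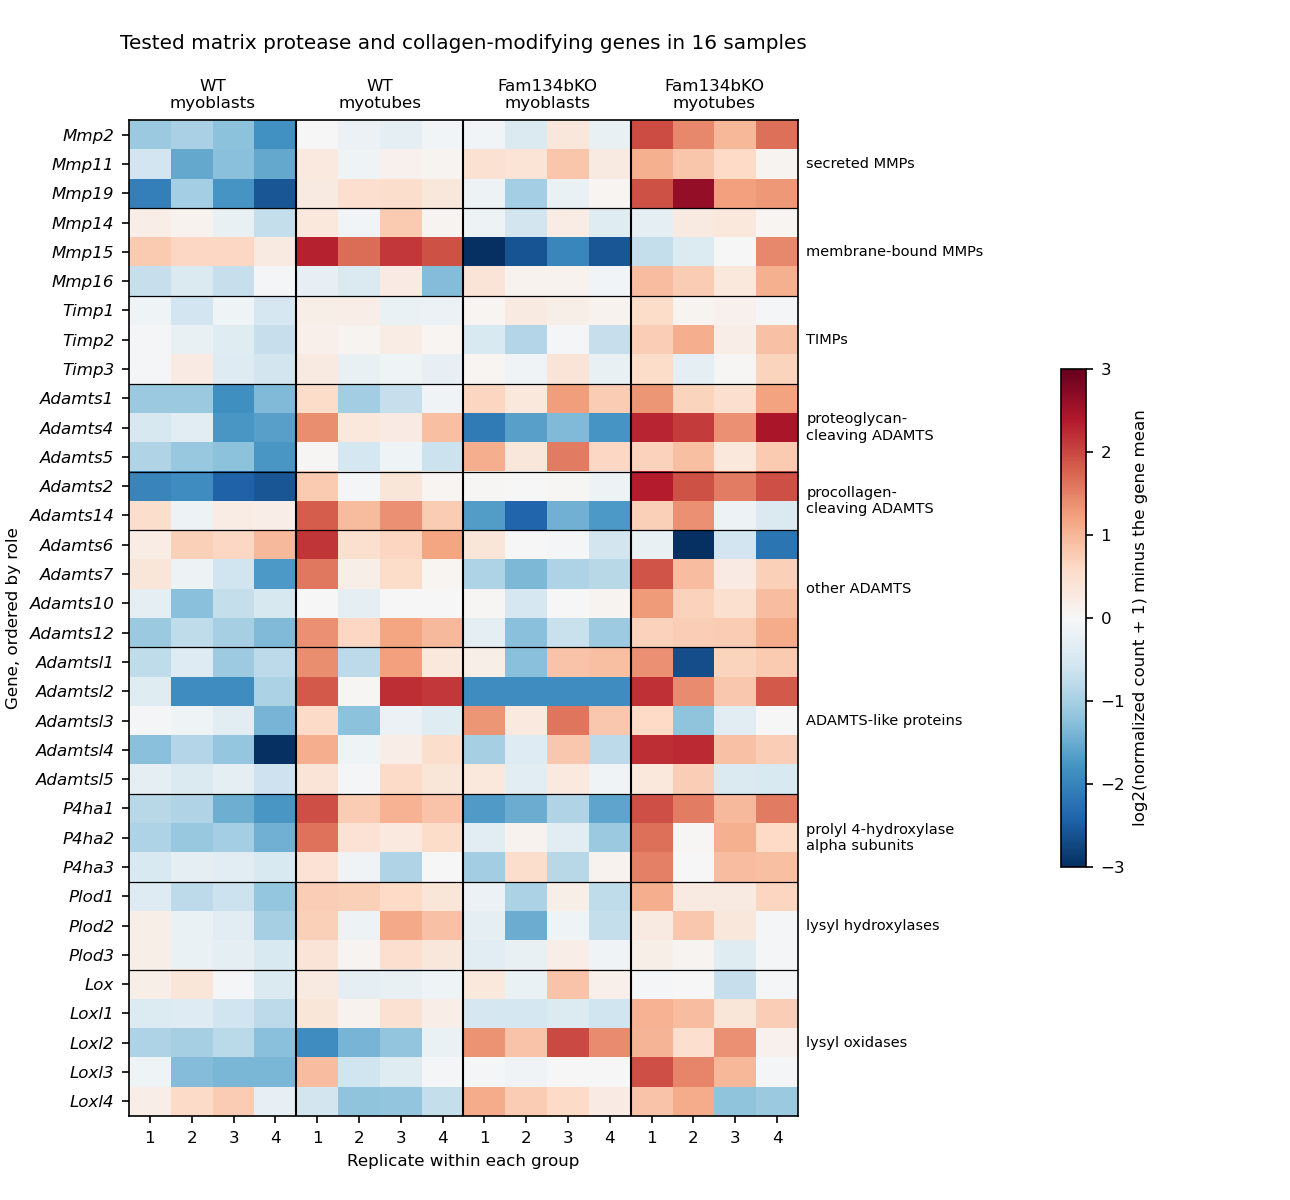
Log2(normalized count + 1) of the 34 tested genes (rows, by role) in the 16 samples (columns, by group), each gene minus its own mean over all samples, with red above and blue below. Most rows turn redder from WT myoblasts to WT myotubes, Mmp15 is bluest in Fam134bKO myoblasts, and Loxl2 is red in every Fam134bKO sample.

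**Figure D2:**
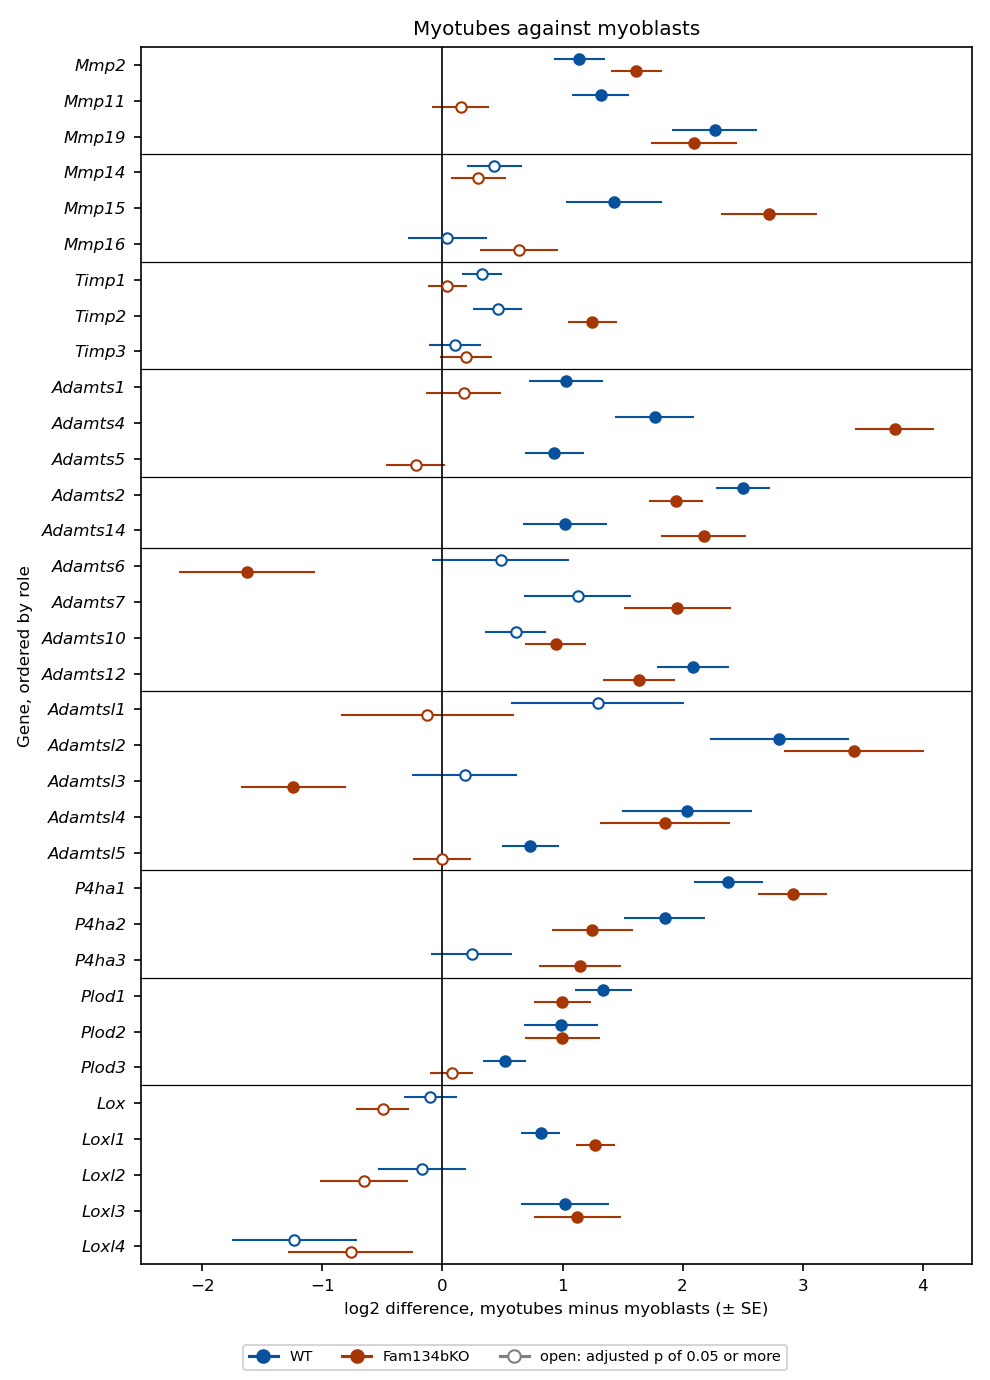
Log2 difference between myotubes and myoblasts (horizontal axis, ± SE) for each of the 34 tested genes (vertical axis, by role) in WT and Fam134bKO cells, with filled points at an adjusted p under 0.05. In WT 20 points are filled, all to the right of 0, and in Fam134bKO 19 are filled to the right and 2 to the left.

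Between genotypes, 8 members were called higher and 2 lower in Fam134bKO myoblasts than in WT myoblasts, with a median of 0.33 against -0.01 over all genes, of which 7.26% were called higher and 8.5% lower. In myotubes 13 were called higher and 2 lower, with a median of 0.35 against -0.07, while 9.74% of all genes were called higher and 13.7% lower. Adamts1, Adamts2, Adamts5, Loxl2, Mmp2 and Mmp19 were called higher at both stages and Mmp15 lower at both. The count called higher in myotubes was 8 without WT myotubes 4, and 8 without both shallow samples.

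The interaction, which tests whether the change on differentiation differed between genotypes, called 1 member, Adamts4, against 1.97% of all genes higher and 1.48% lower. Without any one of WT myoblasts 1, Fam134bKO myoblasts 2 and Fam134bKO myotubes 1 and 2 it called 2. Before adjustment 9 of the 34 members had a p under 0.05 in it, against 1876 of all 10767 genes.

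**Figure D3:**
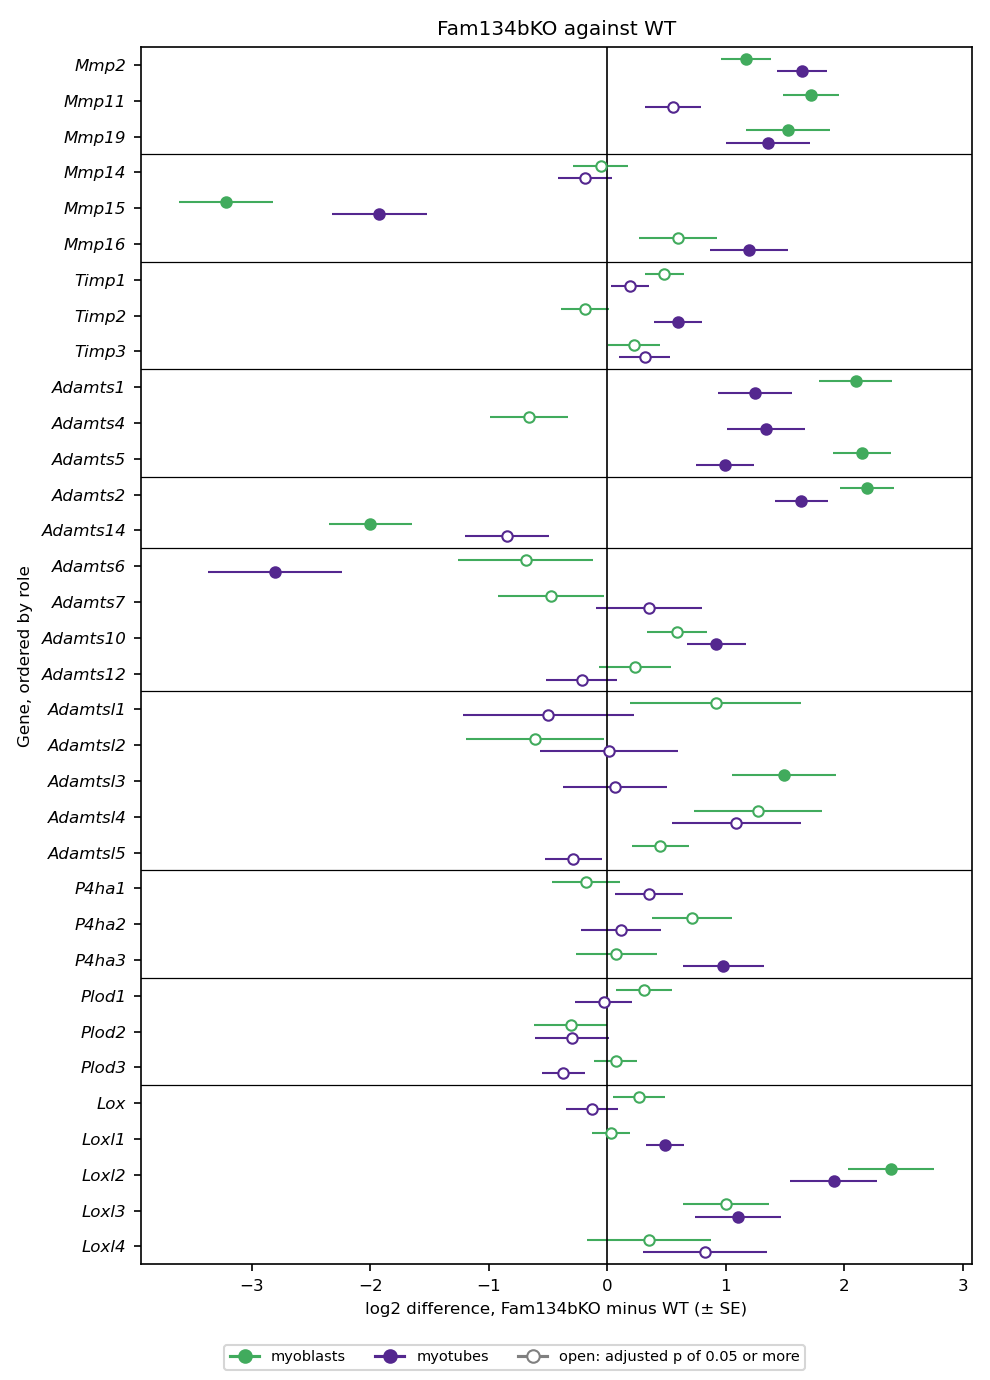
Log2 difference between Fam134bKO and WT (horizontal axis, ± SE) for each of the 34 tested genes (vertical axis, by role) in myoblasts and in myotubes, with filled points at an adjusted p under 0.05. The farthest points to the left are Mmp15 in myoblasts (-3.22) and Adamts6 in myotubes (-2.81), and the farthest to the right is Loxl2 in myoblasts (2.39).

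Mmp2, the secreted gelatinase A, stood highest in Fam134bKO myotubes. Its normalized counts were 424, 465, 390.3 and 258 in WT myoblasts and 901, 801, 756 and 866 in WT myotubes. In Fam134bKO they were 858, 675, 1146 and 776 in myoblasts and 3552, 2484, 1809 and 2857 in myotubes. Every Fam134bKO myotube sample lay above every other sample, and WT myotubes lay above WT myoblasts without overlap. The rise on differentiation was 2.16-fold in WT (log2 difference 1.14 ± 0.21 (SE), adjusted p = 0.00053) and 3.1-fold in Fam134bKO (1.62 ± 0.21 (SE), adjusted p = 5.07e-06). Fam134bKO exceeded WT 2.25-fold in myoblasts (1.17 ± 0.21 (SE), adjusted p = 0.000343) and 3.22-fold in myotubes (1.65 ± 0.21 (SE), adjusted p = 1.12e-05). The interaction was 0.47 ± 0.30 (SE), adjusted p = 0.429, which did not pass.

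Mmp19, a secreted metalloproteinase, was at 5.54, 12.5, 7.005 and 3.56 in WT myoblasts and 31.9, 37.8, 38.1 and 33.7 in WT myotubes, and at 23.6, 12.4, 22.6 and 27.5 and 101, 169, 62.98 and 65.9 in the Fam134bKO groups. Myotubes and myoblasts did not overlap in either genotype, and it was called higher in all 4 contrasts between groups, by 2.27 (adjusted p = 9.81e-05) and 2.10 (adjusted p = 0.000114) on differentiation and by 1.53 (adjusted p = 0.00411) and 1.35 (adjusted p = 0.00853) for genotype. Mmp11, stromelysin 3, which is cut to its active form inside the cell by furin, was at 41.6 ± 15.1 (SD, n = 4) in WT myoblasts and 102 ± 12.1 in WT myotubes, a rise of 1.32 ± 0.24 (SE), adjusted p = 0.000419. In Fam134bKO it stood at 135 ± 23.8 in myoblasts already, 1.72 ± 0.24 (SE), adjusted p = 1.52e-05 above WT, and at 154 ± 42.7 in myotubes, with a change of 0.15 (adjusted p = 0.65). Its interaction was -1.16 ± 0.34 (SE), adjusted p = 0.0588. The exons of Mmp11 overlap those of Chchd10 on the opposite strand. Whether counting used the strand is not given in the sources used here. Chchd10 was at 367 ± 38.9 in WT myoblasts and 949 ± 90.7 in WT myotubes, and at 35.4 ± 5.58 and 121 ± 15.8 in the Fam134bKO groups, so it was higher in myotubes, like Mmp11 in WT, and lower in Fam134bKO. Its part in the Mmp11 values was not tested.

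The other 12 secreted metalloproteinases were near or at 0. Mmp9, gelatinase B, spanned 0 to 5.54 among WT myoblasts and 1.86 to 8.63 among WT myotubes, and was at 0 in all Fam134bKO myoblasts and 0 to 1.80 in Fam134bKO myotubes, with 31 reads in all. Mmp28 had 15 reads in all samples together. A run of 9 members, Mmp13, Mmp12, Mmp1b, Mmp3, Mmp10, Mmp8, Mmp27, Mmp20 and Mmp7, lies on chromosome 9 between positions 7272514 and 7699585 (GRCm38.p6) and gathered 5 reads over the 16 samples, with at most 2 for any one gene. A count of 0 allows up to 3 reads in a library, which corresponded to a normalized count of 2.49 to 5.99. Mmp21 had no read.

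The promoters of this run are shown because collagenase and stromelysin genes are textbook targets of AP-1, the dimer of Fos and Jun proteins. RefSeq promoter windows, 250 bases before to 50 after the annotated start, were at hand for 41 members, 20 of them tested. These 41 members had 44 windows. The AP-1 motif TGACTCA, read on both strands, was in the windows of 6, Mmp1b, Mmp3, Mmp7, Mmp10, Mmp12 and Mmp13, all in that run. It was in 0 of the 20 tested members. Of all 32851 windows 5.2% held it, so the 0 of 20 was near the background. In the 3 windows that follow (GRCm38.p6, written 5′ to 3′) capitals mark that motif on either strand.
Mmp3, chr9:7445572-7445871, plus strand: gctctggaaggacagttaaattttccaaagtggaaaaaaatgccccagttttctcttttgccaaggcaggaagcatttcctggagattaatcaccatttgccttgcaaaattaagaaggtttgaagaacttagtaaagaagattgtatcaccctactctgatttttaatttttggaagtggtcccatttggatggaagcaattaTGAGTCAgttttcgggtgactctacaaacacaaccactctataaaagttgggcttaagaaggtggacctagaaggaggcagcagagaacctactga
Mmp10, chr9:7502092-7502391, plus strand: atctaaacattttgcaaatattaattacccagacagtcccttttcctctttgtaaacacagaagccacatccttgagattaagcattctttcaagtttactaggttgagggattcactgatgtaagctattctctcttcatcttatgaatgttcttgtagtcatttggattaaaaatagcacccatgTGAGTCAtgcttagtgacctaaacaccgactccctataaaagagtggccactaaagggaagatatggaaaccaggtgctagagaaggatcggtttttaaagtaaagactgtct
Mmp13, chr9:7272264-7272563, plus strand: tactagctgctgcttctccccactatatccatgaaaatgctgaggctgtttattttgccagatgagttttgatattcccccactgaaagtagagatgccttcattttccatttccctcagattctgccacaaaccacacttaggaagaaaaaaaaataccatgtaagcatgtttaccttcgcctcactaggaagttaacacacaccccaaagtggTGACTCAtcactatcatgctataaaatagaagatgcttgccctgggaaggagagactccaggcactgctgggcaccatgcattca
The TATA motif TATAAA, on both strands, was in 13 member windows and in 13.6% of all windows. In Mmp3 the AP-1 motif began 46 bases before the start, in Mmp10 63 and in Mmp13 35. Reads from these genes were 1, 0 and 1 in all samples together. The 7 AP-1 subunits were all tested: Fosl2 was called higher in myotubes of both genotypes (0.98, adjusted p = 0.000454 in WT, and 1.61, adjusted p = 5.6e-07 in Fam134bKO), Fosl1 was called lower in WT myotubes (-1.47, adjusted p = 0.000324), and the other 5 were called in neither comparison. Over all genes 13.8% were called higher and 9.16% lower in WT, and 17.3% and 16.1% in Fam134bKO. For genotype, 0 of the 7 subunits were called higher and 3 lower in Fam134bKO myoblasts, against 7.26% and 8.5% of all genes. In Fam134bKO myotubes 1 was called higher and 0 lower, against 9.74% and 13.7%.

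**Figure D4:**
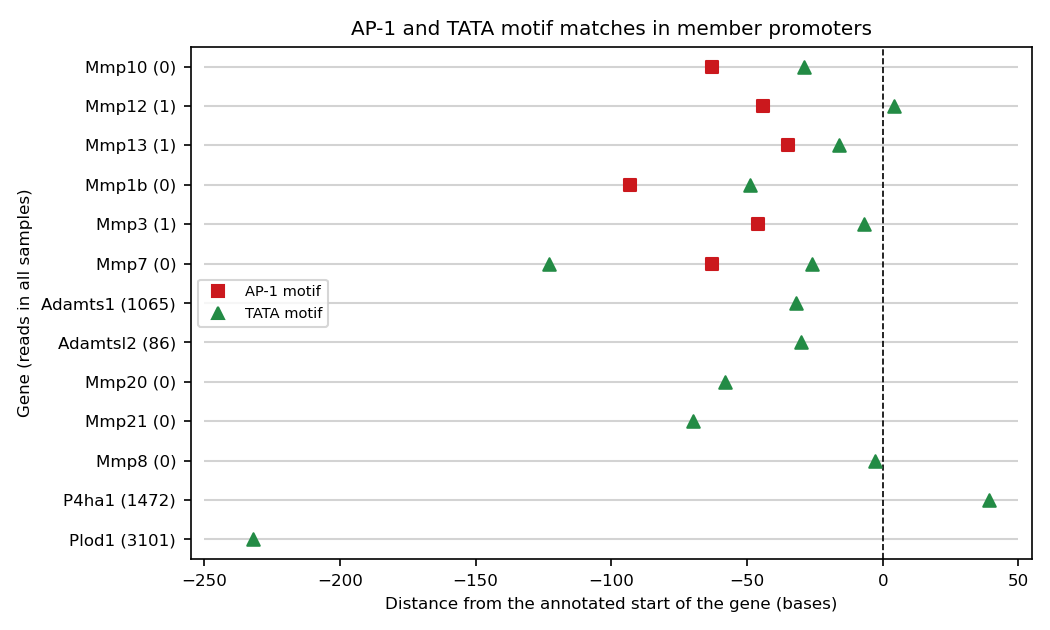
Position of AP-1 (squares) and TATA (triangles) motif matches relative to the annotated start, in bases (horizontal axis), in the promoter windows of the members that hold either (vertical axis, with the reads of each gene in all 16 samples in brackets). The 6 genes with a square have 0 or 1 read each, and of the 7 with a triangle alone, Mmp8, Mmp20 and Mmp21 have 0 and Adamts1, Adamtsl2, P4ha1 and Plod1 have 86 to 3101.

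Mmp15, the membrane-anchored MT2-MMP, was the one member called lower in Fam134bKO at both stages. Its normalized counts were 35.1, 30.9, 31.02 and 24.1 in WT myoblasts and 102, 65.7, 89.2 and 77.3 in WT myotubes, against 0.875, 2.49, 4.34 and 2.5 in Fam134bKO myoblasts and 11.6, 14.6, 19.8 and 55.95 in Fam134bKO myotubes. At each stage the Fam134bKO values were all below the WT values, and the groups of each genotype did not overlap between stages. It was 11.9-fold lower in Fam134bKO myoblasts (log2 difference -3.22 ± 0.40 (SE), adjusted p = 3.52e-06) and 3.28-fold lower in Fam134bKO myotubes (-1.93 ± 0.40 (SE), adjusted p = 0.00137). It rose on differentiation in WT by 1.43 ± 0.40 (SE), adjusted p = 0.0133, a call lost without WT myotubes 1 (adjusted p = 0.0502), and in Fam134bKO by 2.72 ± 0.40 (SE), adjusted p = 2.15e-05. The Mmp15 interaction was 1.295 ± 0.56 (SE), adjusted p = 0.235, which did not pass. Fam134bKO myoblasts were also the lowest group and WT myotubes the highest for the summed myotube genes, whose part was not tested.

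Mmp14, the membrane-anchored MT1-MMP that activates pro-MMP2 at the cell surface, did not pass in any comparison. Its group means were 137 ± 35.6, 185 ± 51.4, 131 ± 31.2 and 160.3 ± 29.1 (SD, n = 4) in WT myoblasts, WT myotubes, Fam134bKO myoblasts and Fam134bKO myotubes, and the 95% interval of the genotype difference in myotubes was -0.67 to 0.29. Mmp16, the MT3-MMP, was called higher in Fam134bKO myotubes (23.4 to 39.96) than in WT myotubes (6.93 to 22.3), by 1.195 ± 0.33 (SE), adjusted p = 0.0111. That call was lost without WT myotubes 4 (adjusted p = 0.0534) and without both shallow samples (adjusted p = 0.058). Of the other 4 membrane-bound members, Mmp23 reached at most 15.01 and Mmp17 at most 7.77, both in WT samples, Mmp24 had 1 read, and Mmp25 had none.

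Among the inhibitors, Timp2, which also bridges pro-MMP2 to MT1-MMP, was at 1746, 1559, 1411 and 1134 in WT myoblasts and 2035, 1915, 2127 and 1884 in WT myotubes. Fam134bKO samples were at 1319, 982, 1775 and 1123 in myoblasts and 3019, 3862, 2103 and 3355 in myotubes. It was called higher in Fam134bKO myotubes than in Fam134bKO myoblasts (1.25 ± 0.20 (SE), adjusted p = 7.23e-05). The WT difference was 0.46 (adjusted p = 0.107), and myotubes lay above myoblasts without overlap in both genotypes. The interaction was 0.79 ± 0.29 (SE), adjusted p = 0.143. Fam134bKO myotubes exceeded WT myotubes by 0.60 ± 0.20 (SE), adjusted p = 0.0365, although Fam134bKO myotubes 3, at 2103, lay within the WT range, and the call was lost without any one of WT myotubes 1, 2, 3 and 4 and Fam134bKO myotubes 1, 2 and 4 (adjusted p from 0.0518 to 0.103). Without both shallow samples that difference was 0.34 (adjusted p = 0.315).

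Timp1, a broad inhibitor of secreted metalloproteinases, had group means of 607 ± 99.8, 762 ± 116, 839 ± 52.2 and 873 ± 166 in the order of groups given for Mmp14, and Timp3, the matrix-bound inhibitor that also blocks ADAMTS4 and ADAMTS5, 283 ± 70.7, 301 ± 52.3, 328 ± 62.5 and 384 ± 116. Neither was called in any comparison, and the 95% intervals of the genotype difference in myotubes were -0.15 to 0.53 and -0.14 to 0.77. In myoblasts Timp1 was just short of a call, with Fam134bKO above WT without overlap. That difference was 0.48 (95% interval 0.14 to 0.82, adjusted p = 0.051), and 14 of 30 alternatives called it. Timp4 had 5 reads in all samples. Side by side, Fam134bKO myotubes had Mmp2 3.22-fold, Timp2 1.55-fold and Timp1 1.15-fold of the WT myotube mean, the last without a call.

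**Figure D5:**
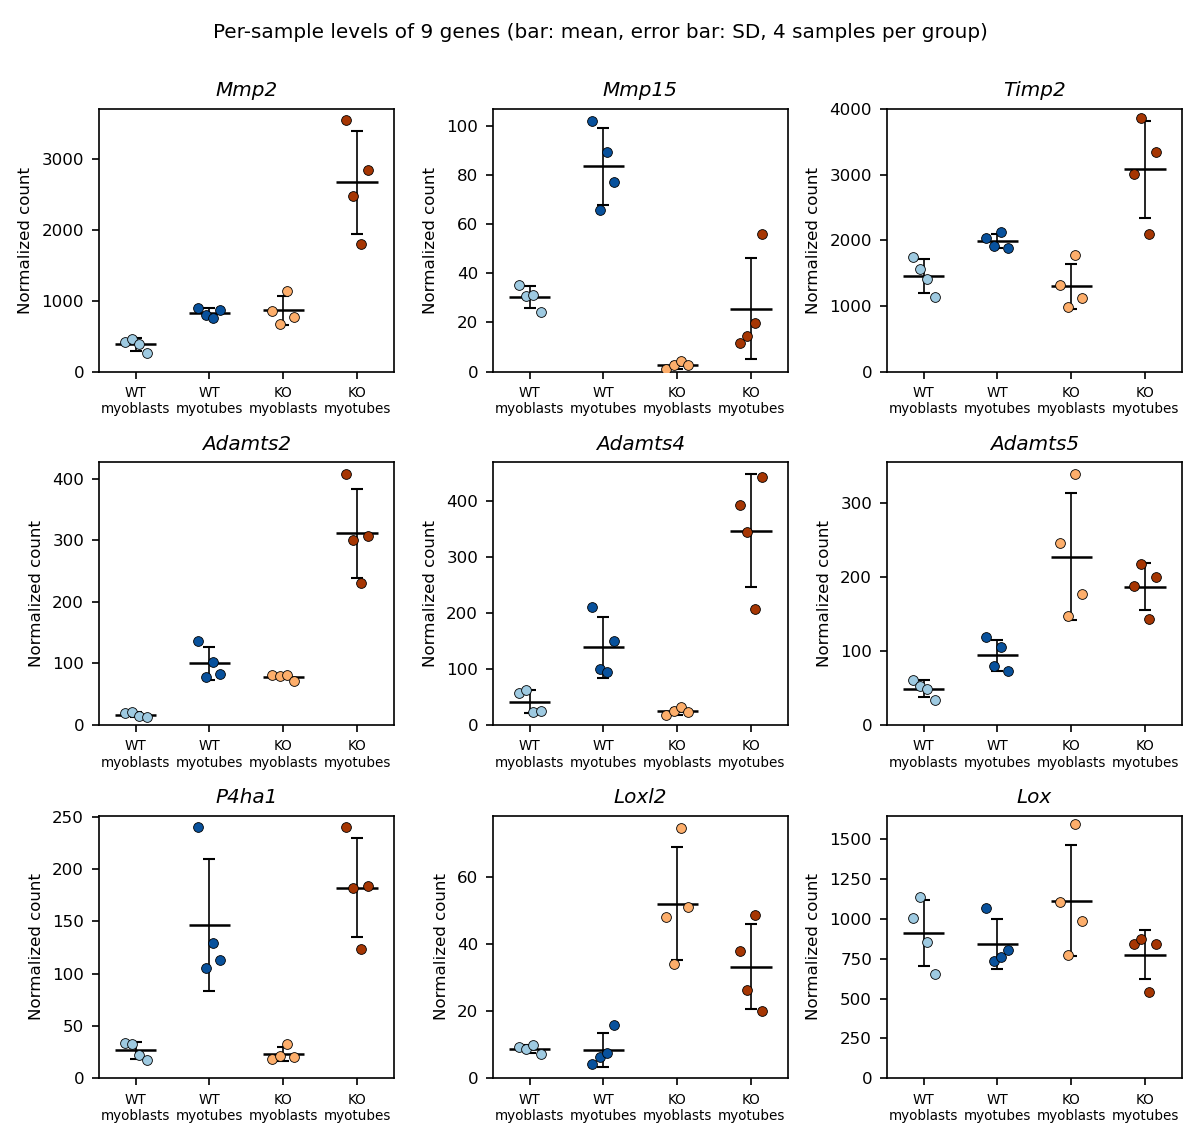
Normalized count (vertical axis, from 0) of 9 members in each sample (points) by group, with the mean (bar) and SD (error bar) of 4 samples. Mmp2, Adamts2 and Adamts4 are highest in Fam134bKO myotubes, Mmp15 is lowest in Fam134bKO myoblasts, Loxl2 is high in both Fam134bKO groups, and the groups of Lox overlap.

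Adamts4, aggrecanase 1, gave the one interaction that passed. Its counts were 56.3, 62.7, 23.02 and 24.9 in WT myoblasts and 211, 99.8, 93.9 and 149.6 in WT myotubes, and 17.5, 24.9, 31.2 and 22.5 in Fam134bKO myoblasts and 392, 344, 207 and 442 in Fam134bKO myotubes. Myotubes lay above myoblasts in both genotypes without overlap, whereas Fam134bKO myotubes 3, at 207, fell below the highest WT myotube sample. The rise was 3.32-fold in WT (1.77 ± 0.33 (SE), adjusted p = 0.000569) and 14.4-fold in Fam134bKO (3.77 ± 0.33 (SE), adjusted p = 1.92e-08). The difference between these rises was 2.001 ± 0.47 (SE), adjusted p = 0.0174. Fam134bKO and WT differed in myotubes by 1.34 ± 0.33 (SE), adjusted p = 0.00535 and in myoblasts by -0.66 (adjusted p = 0.201). Without both shallow samples the interaction was 1.77 (adjusted p = 0.0593) and the difference in myotubes 1.11 (adjusted p = 0.0525).

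Adamts5, aggrecanase 2, and Adamts1, its neighbour on chromosome 16, showed another pattern, with the genotype difference already present in myoblasts. Adamts5 was at 60.9, 52.1, 49.04 and 33.9 in WT myoblasts and 246, 147, 340.1 and 178 in Fam134bKO myoblasts, and at 118, 80.1, 105 and 73.3 and 188, 217, 144 and 199.8 in the myotubes. Fam134bKO lay above WT at each stage without overlap, by 4.65-fold in myoblasts (2.15 ± 0.25 (SE), adjusted p = 1.16e-06) and 1.99-fold in myotubes (0.99 ± 0.25 (SE), adjusted p = 0.00567), the latter lost without both shallow samples (adjusted p = 0.055). Adamts5 was called higher on differentiation in WT (0.93, adjusted p = 0.00942) and had -0.22 (adjusted p = 0.518) in Fam134bKO, with an interaction of -1.16 ± 0.35 (SE), adjusted p = 0.0735.

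For Adamts1 the WT myoblasts spanned 14.01 to 24.1, the WT myotubes 25.2 to 77.7, and Fam134bKO samples were at 66.4 to 128 in Fam134bKO myoblasts and 75.6 to 134 in Fam134bKO myotubes. Fam134bKO exceeded WT by 2.10 ± 0.31 (SE), adjusted p = 3.61e-05 in myoblasts and 1.25 ± 0.31 (SE), adjusted p = 0.00586 in myotubes. Its call on differentiation in WT, 1.03 (adjusted p = 0.0209), was lost without any one of WT myoblasts 3 and WT myotubes 1 and 4 (adjusted p from 0.0629 to 0.104), and in Fam134bKO the difference was 0.18 (adjusted p = 0.693). The Adamts1 interaction was -0.85 ± 0.44 (SE), adjusted p = 0.321, which did not pass. Of the other proteoglycan-cleaving members, Adamts9 had 2 reads and Adamts8, Adamts15 and Adamts20 had none. Vcan, the gene of the proteoglycan versican, was called higher in Fam134bKO myotubes than in Fam134bKO myoblasts (1.61, adjusted p = 0.000532).

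Adamts2, the main procollagen N-proteinase, rose in both genotypes and was higher in Fam134bKO at both stages. WT myoblasts were at 19.4, 21.2, 14.01 and 12.5 and WT myotubes at 137, 77.4, 102 and 83.2. Fam134bKO myoblasts were at 81.4, 79.7, 81.5 and 71.7 and Fam134bKO myotubes at 408, 301, 231 and 308. Fam134bKO myoblasts reached the level of the lower WT myotubes, and the other pairs of groups did not overlap. The rise was 5.96-fold in WT (2.50 ± 0.23 (SE), adjusted p = 6.14e-08) and 3.97-fold in Fam134bKO (1.95 ± 0.23 (SE), adjusted p = 1.03e-06), and the genotype difference 2.19 ± 0.23 (SE), adjusted p = 2.36e-07 in myoblasts and 1.64 ± 0.23 (SE), adjusted p = 2.4e-05 in myotubes. Adamts14, a second procollagen N-proteinase, differed between genotypes in the other direction in myoblasts, with 43.4, 27.0, 35.03 and 34.8 in WT and 8.75, 4.98, 10.4 and 8.34 in Fam134bKO (-2.002 ± 0.35 (SE), adjusted p = 0.000266). In myotubes it was at 107, 58.5, 79.0 and 51.5 in WT and 49.4, 78.8, 26.99 and 21.98 in Fam134bKO (-0.85, adjusted p = 0.0877). It rose on differentiation in Fam134bKO by 2.18 ± 0.35 (SE), adjusted p = 6.82e-05 and in WT by 1.02 (adjusted p = 0.0408), the WT call being lost without any one of WT myoblasts 2, 3 and 4 and WT myotubes 1 and 3 (adjusted p from 0.0819 to 0.153). The Adamts14 interaction was 1.16 ± 0.50 (SE), adjusted p = 0.228, which did not pass. Adamts3, the third procollagen N-proteinase, had 1 read.

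The promoter window of Adamts2 is shown for its E-boxes, CAGCTG, a form bound by the myogenic factors MyoD and myogenin. The motif, which is its own reverse complement and is in capitals, was in 9 of the 41 member windows and in 16.3% of all windows.
Adamts2, chr11:50601835-50602134, plus strand: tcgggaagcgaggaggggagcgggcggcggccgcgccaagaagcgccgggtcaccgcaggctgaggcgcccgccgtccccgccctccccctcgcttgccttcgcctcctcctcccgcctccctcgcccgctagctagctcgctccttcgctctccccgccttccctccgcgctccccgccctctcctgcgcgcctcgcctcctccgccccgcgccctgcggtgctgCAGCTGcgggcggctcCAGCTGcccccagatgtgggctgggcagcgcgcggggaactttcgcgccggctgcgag
Myod1 spanned 236 to 375 among WT myoblasts and 632 to 908 among WT myotubes, with 5.81 to 15.8 in Fam134bKO myoblasts and 219.5 to 439 in Fam134bKO myotubes. Its part in the Adamts2 values was not tested.

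Of the other ADAMTS proteases, Adamts12, which cuts the cartilage protein COMP, was called higher in myotubes of both genotypes (2.09 ± 0.30 (SE), adjusted p = 3.67e-05 in WT and 1.64 ± 0.30 (SE), adjusted p = 0.000253 in Fam134bKO). Its WT myoblasts spanned 6.24 to 9.64 and its WT myotubes 26.99 to 45.8, against 6.64 to 14.0 in Fam134bKO myoblasts and 28.1 to 37.97 in Fam134bKO myotubes, and no genotype difference was called. Adamts7, also a COMP-cleaving protease, was at 4.98 to 7.51 in Fam134bKO myoblasts and 17.1 to 55.2 in Fam134bKO myotubes (1.95 ± 0.45 (SE), adjusted p = 0.00197), with 1.13 (adjusted p = 0.0725) in WT. Adamts10, which binds fibrillin, was at 39.7, 33.3, 39.96 and 40.6 in WT myotubes and 99.7, 65.7, 56.7 and 77.9 in Fam134bKO myotubes without overlap (0.92 ± 0.25 (SE), adjusted p = 0.0114), and it rose on differentiation in Fam134bKO by 0.94 ± 0.25 (SE), adjusted p = 0.00662. The Adamts10 rise in WT was 0.61 (adjusted p = 0.087), also without overlap, and the interaction 0.33 (adjusted p = 0.68). In myoblasts its genotype difference was 0.59 (adjusted p = 0.129).

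Adamts6 went the other way, with 59.6, 17.99, 20.4 and 29.7 in WT myotubes and 10.7, 0, 8.1 and 1.998 in Fam134bKO myotubes, a difference of -2.81 ± 0.57 (SE), adjusted p = 0.00115 between groups that did not overlap. It fell on differentiation in Fam134bKO (-1.63 ± 0.57 (SE), adjusted p = 0.0316), from 16.6, 12.4, 12.2 and 8.34 in myoblasts, but that call was lost without any one of Fam134bKO myoblasts 1, 2 and 3 and Fam134bKO myotubes 2 and 4 (adjusted p from 0.0561 to 0.113), and without both shallow samples the difference was -0.34 (adjusted p = 0.554). The lowest values, 0 and 1.998, were in those samples, at depths where 3 reads correspond to a normalized count of up to 5.99. Adamts17 stayed below the filter at 29.04, 37.9, 8.997 and 13.99 in Fam134bKO myotubes, 0 to 4.32 in WT myotubes and at most 0.923 in any myoblast sample. Adamts16 reached 17.3 in WT myotubes, Adamts18 had 5 reads, and Adamts13 and Adamts19 had none.

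Adamtsl2, whose product binds fibrillin and LTBP1, was nearly silent in myoblasts. It had 3 reads in the 4 WT myoblast samples together and none in the 4 Fam134bKO myoblast samples, against 12.1, 2.7, 15.8 and 14.9 normalized counts in WT myotubes and 15.5, 8.76, 5.4 and 11.99 in Fam134bKO myotubes. In WT the ratio of 49 to 3 reads, allowing for depth, was 15.9 (95% exact counting interval 5.13 to 79.8), and in Fam134bKO myotubes were at least 4.07-fold higher than the level of 3 reads in each myoblast library. Both rises passed (adjusted p = 0.00148 and 0.000116). Adamtsl4, which binds fibrillin-1, was called higher in myotubes of WT (0 to 3.86 against 7.2 to 18.1, 2.04, adjusted p = 0.01) and Fam134bKO (3.5 to 14.8 against 13.99 to 40.9, 1.85, adjusted p = 0.0122). Fbn1, the gene of fibrillin-1, was called higher in myotubes of both genotypes as well (2.54, adjusted p = 4.37e-07 in WT, and 2.26, adjusted p = 1.11e-06 in Fam134bKO).

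Adamtsl3 was at 17.5, 16.4, 14.01 and 6.24 in WT myoblasts and 47.2, 22.4, 57.3 and 32.5 in Fam134bKO myoblasts (1.49 ± 0.44 (SE), adjusted p = 0.0222), a call lost without any one of WT myoblasts 4 and Fam134bKO myoblasts 1 and 3 (adjusted p from 0.0717 to 0.0966). It was called lower in Fam134bKO myotubes than in Fam134bKO myoblasts (-1.24, adjusted p = 0.0336), and this was lost without any one of Fam134bKO myoblasts 1, 3 and 4 and Fam134bKO myotubes 2 and 3 (adjusted p from 0.0536 to 0.107) and without both shallow samples (-0.87, adjusted p = 0.179). Adamtsl5 was called higher in WT myotubes (0.73, adjusted p = 0.0326) and lost that call without any one of WT myoblasts 2, 3 and 4 and WT myotubes 1, 3 and 4 (adjusted p from 0.055 to 0.098). Adamtsl1 stayed at or below 15.5 and was not called in any comparison.

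Among the enzymes that act inside the endoplasmic reticulum, P4ha1, a catalytic alpha subunit of prolyl 4-hydroxylase, had the largest rise on differentiation. It was at 34.1, 32.8, 22.02 and 17.8 in WT myoblasts and 240.0, 105, 129 and 113 in WT myotubes, a 5.5-fold rise (2.38 ± 0.29 (SE), adjusted p = 3.7e-06). In Fam134bKO it was at 18.4, 21.6, 32.97 and 20.02 and 240.1, 182, 123 and 184, a 7.85-fold rise (2.92 ± 0.29 (SE), adjusted p = 9.89e-08). Myotubes and myoblasts did not overlap, and the 95% interval of the genotype difference was -0.78 to 0.42 in myoblasts and -0.24 to 0.95 in myotubes. P4ha2, a second alpha subunit, rose by 1.85 ± 0.34 (SE), adjusted p = 0.000472 in WT, with ranges of 17.8 to 25.8 in myoblasts and 61.3 to 156 in myotubes, and by 1.25 ± 0.34 (SE), adjusted p = 0.00711 in Fam134bKO, with ranges of 22.5 to 53.96 and 51.1 to 159.

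P4ha3, the third alpha subunit, behaved otherwise, with 63.7, 72.3, 69.05 and 63.3 in WT myoblasts, 118, 80.96, 46.5 and 89.2 in WT myotubes, 42.0, 128, 48.6 and 95.1 in Fam134bKO myoblasts and 254, 87.5, 167 and 166 in Fam134bKO myotubes. Its interaction was 0.90 ± 0.48 (SE), adjusted p = 0.336, and its groups overlapped in each genotype. It was called in Fam134bKO on differentiation (1.15 ± 0.34 (SE), adjusted p = 0.0128), which was lost without any one of Fam134bKO myoblasts 1 and Fam134bKO myotubes 1 (adjusted p from 0.0543 to 0.0609), and in myotubes between genotypes (0.98 ± 0.34 (SE), adjusted p = 0.0403), which was lost without any one of WT myoblasts 3, WT myotubes 2, 3 and 4 and Fam134bKO myotubes 1, 3 and 4 (adjusted p from 0.0505 to 0.159).

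P4ha1 and P4ha2 are textbook targets of the hypoxia-inducible factors, so their promoter windows are shown with ACGTG, the core those factors bind, in capitals on either strand. The core was in 11 of the 41 member windows and in 19.6% of all windows.
P4ha1, chr10:59323046-59323345, plus strand: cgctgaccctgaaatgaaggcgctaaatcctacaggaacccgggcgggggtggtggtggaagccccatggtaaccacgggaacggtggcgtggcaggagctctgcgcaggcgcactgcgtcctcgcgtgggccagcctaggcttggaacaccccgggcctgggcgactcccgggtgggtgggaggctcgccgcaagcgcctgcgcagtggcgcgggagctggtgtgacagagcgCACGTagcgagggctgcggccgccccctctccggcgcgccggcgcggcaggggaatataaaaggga
P4ha2, chr11:54100674-54100973, plus strand: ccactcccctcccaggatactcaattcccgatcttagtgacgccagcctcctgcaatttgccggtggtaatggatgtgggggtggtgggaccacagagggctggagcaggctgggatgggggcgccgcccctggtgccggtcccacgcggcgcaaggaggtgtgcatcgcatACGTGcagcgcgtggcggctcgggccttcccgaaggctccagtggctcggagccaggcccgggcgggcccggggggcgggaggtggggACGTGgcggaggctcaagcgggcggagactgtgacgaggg
Of 14 other hypoxia-inducible genes tested, 10 were called higher in WT myotubes and 9 in Fam134bKO myotubes, and 0 lower in either (13.8% and 17.3% of all genes were called higher), with medians of 1.29 and 1.10 against -0.01 and -0.02 over all genes. Pdk1, a kinase that restrains pyruvate oxidation, rose by 2.20 (adjusted p = 8.98e-07) in WT and 2.12 (adjusted p = 7.03e-07) in Fam134bKO. Car9, a carbonic anhydrase, had no read in any myoblast sample and means of 22.5 ± 10.98 (SD, n = 4) in WT and 24.6 ± 22.5 in Fam134bKO myotubes. Between genotypes 1 of the 14 was called higher and 1 lower in myoblasts, and 1 and 2 in myotubes, against 7.26% and 8.5% of all genes in myoblasts and 9.74% and 13.7% in myotubes. Oxygen was not reported for the cultures, and its part was not tested.

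All 3 lysyl hydroxylases were called higher in WT myotubes. Plod1 went from 132, 99.3, 110.1 and 76.6 in WT myoblasts to 286, 282, 262 and 219.9 in WT myotubes (1.34 ± 0.24 (SE), adjusted p = 0.000383) and rose in Fam134bKO too, with ranges of 87.99 to 194 in myoblasts and 206 to 369 in myotubes (1.00 ± 0.24 (SE), adjusted p = 0.00289). Plod2, the enzyme that hydroxylates lysines of the collagen telopeptides, rose by 0.99 (adjusted p = 0.0254) in WT and 1.00 (adjusted p = 0.0168) in Fam134bKO, the first call lost without any one of WT myoblasts 3 and 4 and WT myotubes 1, 3 and 4 (adjusted p from 0.0566 to 0.107) and the second without Fam134bKO myoblasts 2 (adjusted p = 0.0687) and without both shallow samples (adjusted p = 0.0504). Plod3 had the smallest rise in WT (0.52, adjusted p = 0.0413), lost without any one of WT myoblasts 2, 3 and 4, WT myotubes 1, 3 and 4 and Fam134bKO myoblasts 4 (adjusted p from 0.0528 to 0.144), and 0.08 (adjusted p = 0.776) in Fam134bKO. None of the 3 was called between genotypes at either stage, and the 95% intervals in myotubes were -0.53 to 0.47, -0.94 to 0.34 and -0.74 to 0.00.

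Lox itself, the founding lysyl oxidase, was not called in any comparison. Its group means were 912 ± 207 in WT myoblasts, 842 ± 155 in WT myotubes, 1115 ± 348 in Fam134bKO myoblasts and 776 ± 155 in Fam134bKO myotubes (SD, n = 4), and the groups overlapped. On differentiation the difference was -0.10 (adjusted p = 0.787) in WT and -0.50 (adjusted p = 0.0844) in Fam134bKO. Loxl1, which acts on elastin, was called higher in myotubes of WT, from 169, 172, 147 and 130.1 to 286, 239, 307 and 259 (0.82 ± 0.16 (SE), adjusted p = 0.00106), and of Fam134bKO, from 157, 154, 169 and 148 to 461, 425, 289 and 372 (1.27 ± 0.16 (SE), adjusted p = 4.07e-06). The genotype difference in myotubes, 0.49 ± 0.16 (SE), adjusted p = 0.0346, was lost without any one of WT myotubes 2 and 4 and Fam134bKO myotubes 1 and 2 (adjusted p from 0.0751 to 0.104) and without both shallow samples (0.43, adjusted p = 0.139).

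Loxl2, an oxidase of collagen IV, separated the genotypes at both stages and was not called on differentiation. WT myoblasts were at 9.23, 8.68, 10.01 and 7.13 and WT myotubes at 4.32, 6.3, 7.43 and 15.8, against 48.1, 34.03, 74.6 and 50.9 in Fam134bKO myoblasts and 37.8, 26.3, 48.6 and 19.98 in Fam134bKO myotubes. The lowest Fam134bKO sample, myotubes 4, lay above the highest WT sample, also myotubes 4. Fam134bKO exceeded WT 5.93-fold in myoblasts (2.39 ± 0.37 (SE), adjusted p = 5.51e-05) and 3.91-fold in myotubes (1.91 ± 0.37 (SE), adjusted p = 0.000691). In the annotation 16.6% of the 31-base stretches in the last 500 bases of its transcripts also occur in another gene, the highest share among tested members.

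Loxl3 was at 78.4, 34.7, 33.02 and 32.97 in WT myoblasts, 166, 56.7, 66.9 and 84.2 in WT myotubes, 83.99, 79.7, 87.6 and 85.9 in Fam134bKO myoblasts and 333, 239, 174 and 83.9 in Fam134bKO myotubes. In myoblasts Fam134bKO exceeded WT by 1.00 (adjusted p = 0.0671) without overlap, a difference that 8 of 30 alternatives called. The Loxl3 interaction was 0.10 (adjusted p = 0.95). Loxl3 was called higher on differentiation in WT (1.02 ± 0.36 (SE), adjusted p = 0.0472) and in Fam134bKO (1.12 ± 0.36 (SE), adjusted p = 0.0216), and in Fam134bKO myotubes over WT myotubes (1.10 ± 0.36 (SE), adjusted p = 0.0319), where the groups overlapped. The first call was lost without any one of WT myoblasts 2, 3 and 4, WT myotubes 1, 3 and 4, Fam134bKO myoblasts 1, 2, 3 and 4 and Fam134bKO myotubes 3 (adjusted p from 0.0511 to 0.204), the second without any one of Fam134bKO myotubes 1 and 2 (adjusted p from 0.053 to 0.0912) and the third without any one of WT myotubes 2, 3 and 4 and Fam134bKO myotubes 1 and 2 (adjusted p from 0.068 to 0.115). Its exons overlap Htra2 on the opposite strand, which ranged from 56.0 to 469 in Fam134bKO myotubes. Exons of Adamts7, Mmp19 and Plod3 likewise overlap genes on the opposite strand, Tbc1d2b, Tmem198b and Znhit1. Loxl4 stayed at or below 13.1 and was not called in any comparison.

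The genes around the members were read from the same fit, in which 13.8% of all genes were called higher and 9.16% lower on differentiation in WT, 17.3% and 16.1% in Fam134bKO, 7.26% and 8.5% between genotypes in myoblasts, and 9.74% and 13.7% in myotubes. Of 10 tested fibrillar collagen and elastic fibre genes, 9 were called higher in WT myotubes and 6 in Fam134bKO myotubes, and 0 lower, led by Col5a3 in WT (2.64, adjusted p = 4.27e-05) and Col3a1 in Fam134bKO (2.45, adjusted p = 1.5e-05). Their medians were 1.85 and 1.27 against -0.01 and -0.02 over all genes. Between genotypes 4 were called higher and 1 lower in myoblasts (median 0.87 against -0.01), and 2 and 2 in myotubes (0.37 against -0.07). Of 15 tested collagen-folding and processing genes outside the 61, 10 were called higher and 1 lower in WT myotubes, and 9 and 1 in Fam134bKO myotubes, with medians of 1.03 and 1.00. Serpinh1, the collagen chaperone HSP47, rose by 1.81 (adjusted p = 0.000293) in WT and 1.55 (adjusted p = 0.000706) in Fam134bKO, and Pcolce2, an enhancer of procollagen processing, fell by 1.40 (adjusted p = 0.000706) in Fam134bKO. Between genotypes this list gave 1 higher and 0 lower of 15 in myoblasts and 1 higher and 1 lower in myotubes, where the shares over all genes were 7.26% and 8.5%, and 9.74% and 13.7%, so the counts were near or below the background.

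Of 13 tested plasminogen-system genes and other regulators of matrix proteases, 6 were called higher and 0 lower in WT myotubes, and 5 and 1 in Fam134bKO myotubes, with medians of 1.04 and 1.00. Between genotypes 5 were called lower and 0 higher in myoblasts (median -0.52), where 8.5% of all genes were lower and 7.26% higher. In myotubes 3 were called lower and 0 higher (median -0.42), where 13.7% of all genes were lower and 9.74% higher. Adam12, a protease of fusing myoblasts, differed by -1.40 (adjusted p = 9.61e-05) in myoblasts and -0.97 (adjusted p = 0.00344) in myotubes. Plau, the urokinase gene, differed in myoblasts by -1.43 (adjusted p = 0.0417).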

How the data were processed

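RNA from 16 C2C12 cultures was profiled by a digital mRNA sequencing service (single end, 100 cycles). Per the submitters' processing notes the authors used bcl2fastq, STAR 2.6.0a, HTSeq and mm10. The deposited values are log2(normalized count + 1) per gene, 1 column per sample, as found from the values. The normalization tool is not given in the sources used here. Median-ratio scaling of the normalized counts left every count of calls and every median over all genes as it was. The deposited values were thus already on that scale, so this alternative could not move the results. All values were whole reads (tolerance 0.01) after division by 1 step per sample, which gave depths of 1484750 to 3287461 reads. The deposited column names match the sample titles, which gave the groups, since the genotype label reads unknown.

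The 10767 genes that reached 10 normalized counts in 4 or more samples were fitted with limma 3.58.1 in R 4.3.3 (lmFit, contrasts.fit, eBayes with trend) on the deposited log2 values, with 4 group means and all 16 samples. P-values are two-sided and adjusted by Benjamini-Hochberg over all 10767 genes, and measure the spread between cultures labelled as biological replicates. The 4 comparisons share groups. All tested members could be named, and of each other list at most 4 called genes per comparison. Some genes outside the 61 are not reported here. The members, lists and markers were chosen with earlier results of these data known. The design assumed linear normalized counts, and since the deposited values were already log2 they were used as they are. The fit was tested on simulated data. Alternatives were other pseudocounts, filters, scalings, fits and thresholds, leaving out each sample, and 2 chosen after seeing the data (leaving out both shallow samples, and limma voom on the recovered reads). Sequences and positions are from RefSeq (GRCm38.p6) and overlaps from GENCODE M21. Intervals for reads cover counting error only.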

Additional observations from a re-analysis of the deposited data

Results flagged for a closer look

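In 6 of 135 groups of 4 values one sample stood apart from the other 3 by Dixon's test, and chance flags about 1 in 20 groups. Adamts10 was low in WT myotubes 2 (33.3) and in Fam134bKO myoblasts 2 (28.2). Adamtsl2 was low in WT myotubes 2 (2.70), and Adamtsl4 was at 0 in WT myoblasts 4. Lox was low in Fam134bKO myotubes 3 (544.0), and Loxl3 was high in WT myoblasts 1 (78.4). The change of Adamts4 on differentiation differed between the genotypes by 2.001 on the log2 scale, the one member past the threshold of the interaction test.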

How the results depend on the processing

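No member's called difference changed sign under any alternative. Of the calls, 10 of 20 (differentiation in WT), 13 of 21 (in Fam134bKO), 9 of 10 (genotype in myoblasts), 7 of 15 (genotype in myotubes) and 0 of 1 (interaction) passed under every alternative. At an adjusted p under 0.01 the members called were 12 higher in WT on differentiation, 0 lower in Fam134bKO on differentiation, 9 (7 of them higher) between genotypes in myotubes, and 0 in the interaction (0 higher). With sample weights they were 18 (16 higher) between genotypes in myoblasts, 5 in the interaction (2 higher and 3 lower) and 1 lower in WT on differentiation. Sample weights raised the calls over all genes too. Between genotypes in myoblasts these went from 782 higher and 915 lower to 1764 and 2009. In the interaction they went from 212 higher and 159 lower to 618 and 603. Quantile normalization also gave 1 member lower in WT on differentiation. It moved the split of all genes called on differentiation in WT from 1488 higher and 986 lower to 1418 and 1434. With only the 8 samples compared, 1 was lower in each genotype on differentiation and 8 were higher between genotypes in myotubes. Without both shallow samples 0 were lower in Fam134bKO on differentiation, 8 were higher between genotypes in myotubes, and the interaction called 0 (0 higher). With no filter 0 were lower in Fam134bKO on differentiation and 6 lower between genotypes in myotubes. With a minimum of 50 those were 0 and 1, and the interaction called 2 (1 lower). A pseudocount of 5 and limma voom each left 1 lower in Fam134bKO on differentiation, and a minimum absolute log2 difference of 1 left 8 higher between genotypes in myotubes. Leaving out each sample in turn gave 13 to 21 in WT on differentiation (all higher), 0 to 2 lower in Fam134bKO on differentiation, 8 to 13 higher between genotypes in myotubes, and 1 to 2 in the interaction (0 to 1 lower). The causes were not tested, apart from fewer genes or samples where an alternative sets them.

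With the replicate block the interaction called 2 members (1 lower), and the counts were 20, 21, 12 and 15 in the other comparisons in the order above. Samples with the same number had a mean correlation of 0.03 over 24 pairs (-0.22 to 0.37), against -0.01 for different numbers (-0.35 to 0.37). No pairing by number was detected, and with 4 samples per group these correlations cannot exclude one. Depth limits the members below the filter, where 3 reads are a normalized count of 2.49 to 5.99.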
